A study of Mus musculus with 2 samples.

Results

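The Myb locus was examined as mapped by DNase I hypersensitivity in thymus, over the gene Myb (ENSMUSG00000019982) and 150 kb of DNA on either side. Myb lies at chr10:21124935-21160984 on the minus strand of the mouse build mm10, spans 36050 bp and has 15 exons in GENCODE M21. The window, chr10:20974935-21310984, was set by the position of the gene, which was itself picked with earlier results of these data known. It held 117 of the 127552 peaks of replicate 1 and 48 of the 67270 peaks of replicate 2. It also held 312 of 363775 footprints in replicate 1 and 144 of 203939 footprints in replicate 2. Myb is 1 of 21938 protein-coding genes in that annotation.

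The tissue was whole thymus from 2 female B6CASTF1/J mice, the first generation of a cross between C57BL/6J and CAST mice, at 25 days of age, with no treatment named. There was 1 library per animal and 1 group, so no condition was contrasted and nothing here carries a p-value. The labels number the libraries as biological replicates 1 and 2 and describe a separate animal for each, although both name the same donor entry. Positions in these hybrid animals were given on the C57BL/6J reference, and the read depth of the libraries is not stated, so differences in the number of sites between them cannot be told apart from differences in depth.

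Myb encodes a DNA-binding transcription factor of blood progenitors that thymocytes need from their earliest stages through rearrangement of the T cell receptor genes. Transcription of the gene is known to be held back within intron 1 in blood cells, and enhancers far upstream, between Myb and Hbs1l, have been described in several blood lineages. DNase I cuts DNA where nucleosomes are absent or loose, which marks promoters and enhancers. A footprint is a short stretch inside such a site that is cut less than its surroundings, as happens under a bound protein, though binding itself was not measured. The density of a peak is the authors' own signal value, whose scaling is not stated, so densities were ranked within a library and no ratio was taken between libraries. In a whole tissue, fewer cells with an open site and a less open site in each cell cannot be told apart.

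Defining genes of thymocytes carried a promoter peak, one that reaches to within 1 kb of where the gene begins, at 10 of 10 in both libraries, among them Cd3e, Cd4, Cd8a, Lck, Rag1 and Bcl11b. Over all protein-coding genes the share was 61.7% in replicate 1 and 55.1% in replicate 2. The same held for 0 of 4 B cell genes, 2 of 4 myeloid genes (Spi1 and Itgam), 1 of 4 erythroid genes (Epor), 1 of 4 thymic epithelial genes (Epcam) and 0 of 4 liver genes. The erythroid markers Gata1, Klf1 and Hbb-bs and the thymic epithelial markers Foxn1 and Psmb11 had no promoter peak in either library. The share of each cell type in the tissue was not measured.

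The sequences below are those of the sites on which the results turn: the open DNA just upstream of the Myb start, the intron 1 site with the most footprinted bases there, dense sites on each side of the gene that are no promoter of a protein-coding gene, and the strongly footprinted site at the far downstream edge. They are mm10 reference sequence read 5′ to 3′ on the minus strand, the strand of Myb. Capitals mark bases that lay inside a footprint in both libraries. Distances in kb are from the Myb start to the middle of the site, negative upstream and positive through the gene and beyond it.
Promoter, chr10:21160985-21161120, ending at the base before the Myb start: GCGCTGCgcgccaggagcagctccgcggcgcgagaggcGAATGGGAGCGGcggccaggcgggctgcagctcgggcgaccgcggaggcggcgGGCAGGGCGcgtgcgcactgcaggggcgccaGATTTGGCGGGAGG
Intron 1, 1.89 kb, chr10:21158961-21159220: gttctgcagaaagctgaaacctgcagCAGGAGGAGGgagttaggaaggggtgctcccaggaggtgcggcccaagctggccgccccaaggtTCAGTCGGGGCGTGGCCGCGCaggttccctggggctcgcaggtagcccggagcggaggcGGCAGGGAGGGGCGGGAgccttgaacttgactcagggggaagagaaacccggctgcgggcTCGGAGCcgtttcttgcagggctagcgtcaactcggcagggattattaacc
Upstream, −74.4 kb, chr10:21235301-21235540: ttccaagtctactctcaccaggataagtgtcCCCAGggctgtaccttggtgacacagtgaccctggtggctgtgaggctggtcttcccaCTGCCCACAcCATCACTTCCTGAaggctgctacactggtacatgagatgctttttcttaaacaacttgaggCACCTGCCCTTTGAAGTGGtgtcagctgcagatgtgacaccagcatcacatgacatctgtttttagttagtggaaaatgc
Upstream, −91.4 kb, chr10:21252241-21252460: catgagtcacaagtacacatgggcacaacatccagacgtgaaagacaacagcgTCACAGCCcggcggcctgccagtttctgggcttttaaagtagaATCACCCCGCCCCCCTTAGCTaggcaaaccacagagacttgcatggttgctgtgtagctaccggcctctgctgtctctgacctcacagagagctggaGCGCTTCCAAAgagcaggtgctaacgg
Downstream, 67.9 kb, chr10:21092961-21093220: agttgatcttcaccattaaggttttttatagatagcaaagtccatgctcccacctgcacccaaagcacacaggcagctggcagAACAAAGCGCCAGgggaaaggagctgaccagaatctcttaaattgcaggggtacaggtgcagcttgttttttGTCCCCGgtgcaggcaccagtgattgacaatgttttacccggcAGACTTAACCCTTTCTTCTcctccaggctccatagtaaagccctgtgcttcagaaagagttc
Downstream, 68.3 kb, chr10:21092561-21092820: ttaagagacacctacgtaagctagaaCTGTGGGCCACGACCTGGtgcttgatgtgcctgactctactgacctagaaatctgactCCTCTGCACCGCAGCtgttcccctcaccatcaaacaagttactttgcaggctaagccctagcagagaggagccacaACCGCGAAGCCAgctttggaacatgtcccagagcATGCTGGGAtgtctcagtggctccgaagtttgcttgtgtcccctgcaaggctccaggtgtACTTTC
Downstream, 168.1 kb, chr10:20992781-20992940: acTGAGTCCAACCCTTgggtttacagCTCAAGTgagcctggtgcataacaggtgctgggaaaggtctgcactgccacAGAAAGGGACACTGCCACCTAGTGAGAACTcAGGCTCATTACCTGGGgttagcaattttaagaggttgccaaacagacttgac

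The Myb start was open in both libraries. The densest promoter peak (chr10:21160881-21161120) spans the start and had a density of 10.3 in replicate 1, above 93.5% of all peaks of that library. In replicate 2 its density was 6.90, above 89.96% of all peaks. A promoter peak was present at 61.7% of all protein-coding genes in replicate 1 and at 55.1% in replicate 2, so an open promoter by itself does not set Myb apart. By the density of its densest promoter peak, Myb stood above 70.8% of genes in replicate 1 and 76.3% in replicate 2. The spanning peak held 7 footprints in replicate 1 and 8 in replicate 2, and 6 of those of replicate 1 overlapped a footprint of the other library. The last 14 bases before the start, GATTTGGCGGGAGG, were footprinted in both libraries. They contain TTTGGCG, a core of the sequence recognised by E2F factors, which drive genes of cell division.

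Altogether 4 peaks lay within 1 kb of the start in each library, and all 4 matched between them. The peak at −0.69 kb (chr10:21161581-21161760) had densities of 6.97 in replicate 1 and 4.68 in replicate 2. It was the second densest of the promoter in both libraries, yet it held 3 footprints in replicate 1 and 0 in replicate 2. The other promoter peaks lay inside intron 1 and were weaker. The peak at 0.67 kb (chr10:21160201-21160420) had densities of 2.22 in replicate 1 and 1.40 in replicate 2. The peak at 1.05 kb (chr10:21159721-21160140) had densities of 2.33 in replicate 1 and 1.36 in replicate 2.

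Farther into intron 1 lay another pair of sites, which were the only sites beyond the promoter in the gene body that both libraries listed. The site at 1.89 kb had densities of 6.78 in replicate 1 and 4.89 in replicate 2, with 6 and 4 footprints, and 4 of the 6 overlapped one of replicate 2. It holds 55 bases that were footprinted in both libraries. One of these runs, GGCAGGGAGGGGCGGGA, contains GGGCGG, the core recognised by SP and KLF factors, zinc-finger proteins common at GC-rich promoters. The site at 2.72 kb (chr10:21158161-21158360) had densities of 7.25 in replicate 1 and 1.73 in replicate 2. Among the sites of the window found in both libraries it ranked number 7 in replicate 1 and number 19 in replicate 2, so the libraries placed it differently.

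**Figure D1:**
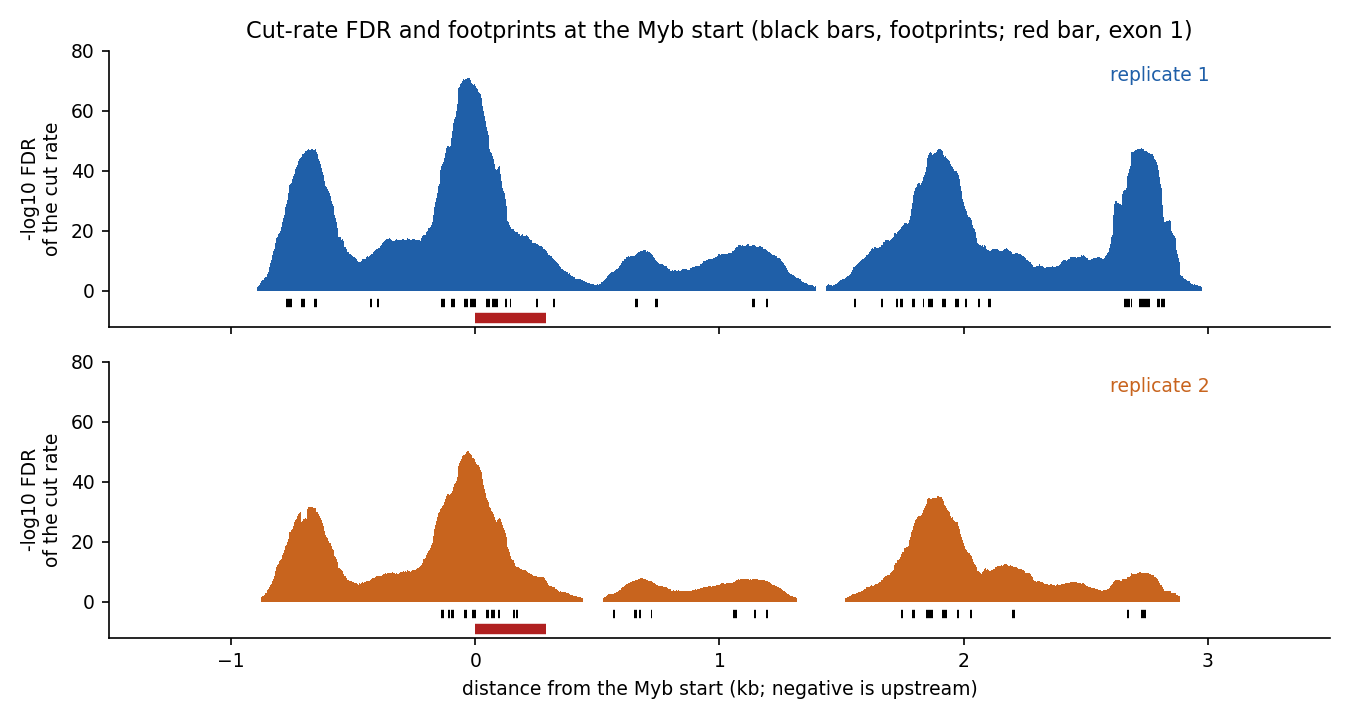
The −log10 of the deposited false discovery rate of the cut rate at each base close to the Myb start, by distance in kb, in replicate 1 (blue) and replicate 2 (orange), with footprints as black bars and exon 1 as a red bar. Both tracks have their highest point at the start and further humps at −0.69 and 1.89 kb, and the hump at 2.72 kb is low in replicate 2.

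Beyond these sites the libraries shared nothing in the rest of the gene body. A stretch of 43.4 kb, chr10:21114761-21158160, which takes in 92.2% of the gene body and runs past the end of the gene, had no site found in both libraries. Replicate 1 listed 6 peaks there, with a highest density of 0.815, close to its library median of 0.825. Replicate 2 listed 0 peaks, 0 footprints and 91 bases below a false discovery rate of 0.05, against 9 footprints and 1004 such bases in replicate 1. Those 6 peaks of replicate 1 fall in the lower part of its own densities or near its middle, and none had a partner. The next longest stretches without a shared site were 29.8 kb from −96.6 to −126.4 kb, 25.0 kb directly upstream of the promoter as far as −25.8 kb, and 24.8 kb from 135.0 to 159.8 kb within Ahi1.

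Upstream of Myb, 52 peaks were listed in replicate 1 and 20 in replicate 2 outside the promoter, and 19 sites were found in both. The site at −91.4 kb had densities of 11.4 in replicate 1 and 10.5 in replicate 2, above 94.2% and 94.3% of all peaks. It was the second densest upstream site in replicate 1, and it ranked number 2 and number 4 among the shared sites of the window. It held 3 footprints in each library, and all of them overlapped between libraries. One shared run, ATCACCCCGCCCCCCTTAGCT, contains the reverse complement of GGGCGG. The start of the long noncoding gene Gm33728 lies between this site and a weaker one at −90.9 kb (chr10:21251761-21252000), which had densities of 1.47 in replicate 1 and 0.924 in replicate 2.

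The site at −74.4 kb, inside an intron of Gm33728, had densities of 6.83 in replicate 1 and 10.7 in replicate 2, above 90.0% and 94.4% of all peaks. It was the densest upstream site in replicate 2. Of its 5 footprints in replicate 1, 4 overlapped one of the 4 footprints of replicate 2. The shared run CACCTGCCCTTTGAAGTGG (chr10:21235362-21235380) holds CACCTG, an E-box read by E proteins such as E2A and HEB, and CTTTGAA, a core of the site of TCF and LEF factors. The shared run CATCACTTCCTGA holds ACTTCC, the reverse complement of the ETS core GGAAGT. E proteins, TCF1 and ETS1 are all factors of thymocyte development, and whether any of them was bound here was not measured.

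Nearer to the gene, densities were lower. The site at −25.9 kb (chr10:21186781-21187040) had densities of 4.50 in replicate 1 and 3.89 in replicate 2. The site at −35.8 kb (chr10:21196681-21196880) had densities of 4.25 in replicate 1 and 3.57 in replicate 2. Both stood above at least 81.2% of the peaks of each library. The site at −28.2 kb (chr10:21189081-21189260), over the start of the long noncoding gene Gm40608, had densities of 4.73 in replicate 1 and 1.10 in replicate 2. The site at −61.8 kb (chr10:21222661-21222880) had densities of 3.34 in replicate 1 and 1.63 in replicate 2.

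The densest peak of the window in replicate 1, at −135.0 kb (chr10:21295901-21296080), belongs to the start of Hbs1l, the next protein-coding gene upstream, which encodes a factor that rescues stalled ribosomes. It had densities of 12.8 in replicate 1 and 8.94 in replicate 2. The outermost shared site, at −141.1 kb in an intron of Hbs1l, had densities of 0.587 in replicate 1 and 0.558 in replicate 2. The first peak past the upstream edge of the window was at −173.0 kb in replicate 1, with a density of 0.465, and at −217.8 kb in replicate 2, with a density of 0.582.

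Downstream of the gene, 54 peaks were listed in replicate 1 and 22 in replicate 2, and 21 sites were found in both. The most open DNA of the window by the mean of its ranks in both libraries lay here, in the intergenic DNA between the end of Myb and the end of Ahi1, a gene of the primary cilium. The site at 68.3 kb had densities of 11.1 in replicate 1 and 14.8 in replicate 2, above 94.0% and 96.8% of all peaks. It held 6 footprints in each library, of which 5 of replicate 1 overlapped one of replicate 2. The site at 67.9 kb, beside it, had densities of 7.23 in replicate 1 and 13.2 in replicate 2. It holds 3 E-box words, none of which touched a footprint shared by both libraries. This pair held ranks 1 and 2 of the shared sites in replicate 2 and ranks 3 and 8 in replicate 1.

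The site at 60.1 kb (chr10:21100761-21100960), in an exon of the long intergenic RNA Gm48189, had densities of 8.20 in replicate 1 and 9.61 in replicate 2. Sites inside the introns of Ahi1 followed. The site at 83.3 kb (chr10:21077521-21077800) had densities of 5.36 in replicate 1 and 6.90 in replicate 2. Its neighbour at 83.8 kb (chr10:21077121-21077320) had densities of 5.72 in replicate 1 and 5.10 in replicate 2. All 3 sites stood above at least 86.3% of the peaks of each library.

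The site at 168.1 kb, also in an intron of Ahi1, had densities of 10.1 in replicate 1 and 2.80 in replicate 2, ranks 5 and 17 of the shared sites. Footprints shared by both libraries covered 67 of its 160 bases, among them a run of 30 bases, AGAAAGGGACACTGCCACCTAGTGAGAACT. That run holds a match to the CTCF consensus with 1 letter left free, on the opposite strand. CTCF is the zinc-finger protein that bounds chromatin loops. In replicate 2 this was the last peak inside the downstream edge of the window. In replicate 1 the last peak was at 184.9 kb, with a density of 0.434. The first peak past that edge, at 194.7 kb in both libraries, had densities of 6.40 in replicate 1 and 1.28 in replicate 2.

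**Figure D2:**
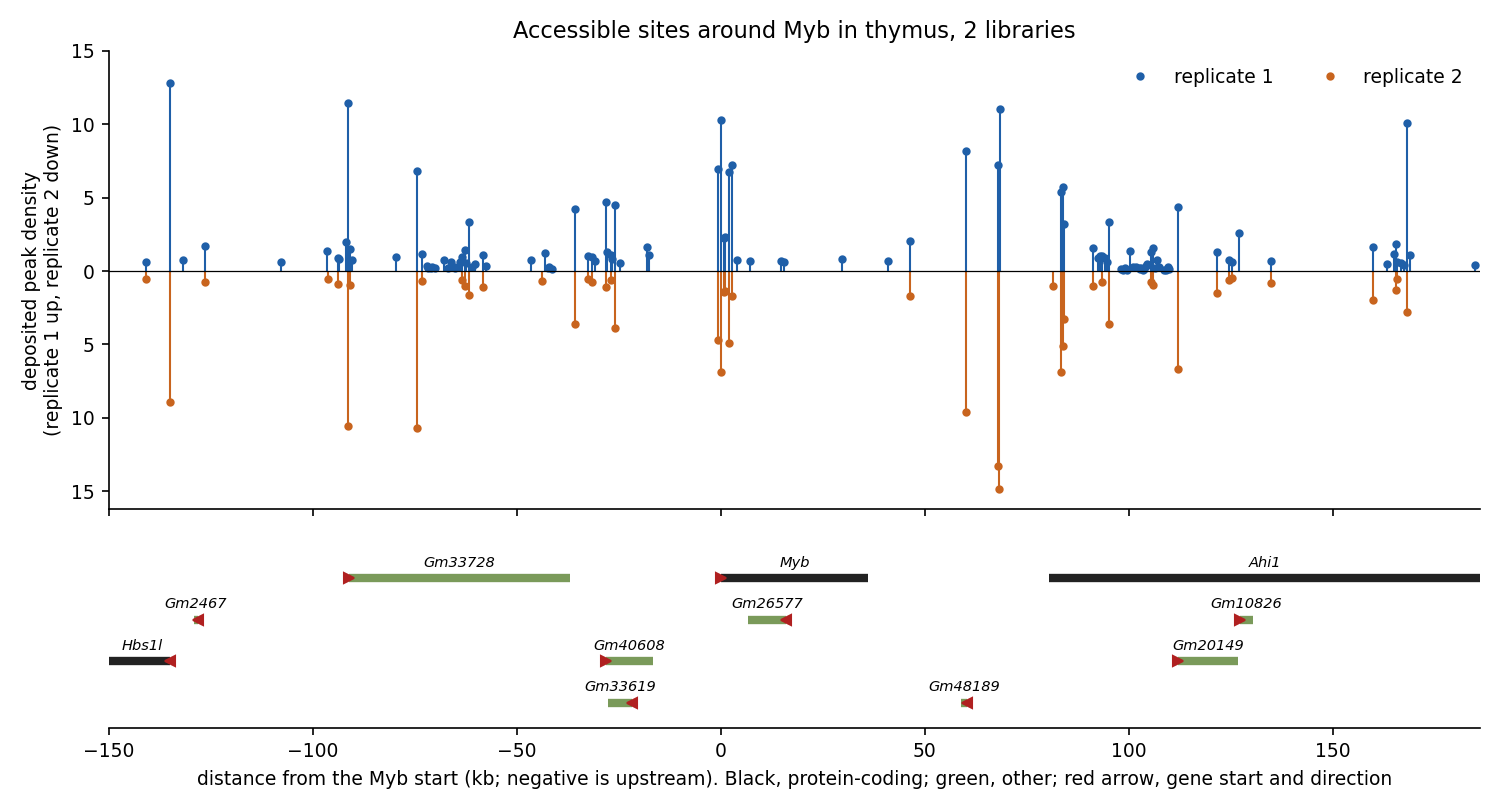
Deposited density of every peak in the Myb window by distance from the Myb start in kb (upstream on the left), replicate 1 drawn upwards in blue and replicate 2 downwards in orange, with annotated genes and their starts underneath. Tall sites stand at −135.0, −91.4, −74.4, 60.1, 67.9 and 68.3 kb and at the Myb start in both libraries, and the gene body past 2.72 kb holds weak peaks of replicate 1 alone.

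The window is rich in peaks for a gene in these libraries. It held more peaks than the matching window of 99.7% of protein-coding genes in replicate 1, where the median gene had 28, and 95.7% in replicate 2, where the median was 15. Counting only the 150 kb upstream, Myb had 54 peaks in replicate 1 and 22 in replicate 2, above 99.0% and 92.7% of genes. The 150 kb downstream also held 54 and 22 peaks, above 99.0% and 92.8% of genes, so neither flank stood out from the other. The gene body held 10 peaks in replicate 1 and 5 in replicate 2, above 91.0% and 88.6% of genes. These counts include peaks within 1 kb of the start, and beyond the promoter the body held 7 and 2. Genes of every length were ranked together, and longer genes have more room for peaks. Footprints in the whole window outnumbered those of 97.7% of genes in replicate 1 and 92.3% in replicate 2. Neighbouring genes share the same DNA, so these shares describe Myb's place and are no test.

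The libraries differed widely in how much they listed. The mean was 82.5 ± 48.8 peaks and 228 ± 119 footprints in the window (SD, n = 2 libraries). Peaks covered 24069 bp in replicate 1 and 9364 bp in replicate 2, which is 7.16% and 2.79% of the window. Bases with a false discovery rate of the cut rate below 0.05 numbered 40798 in replicate 1 and 15955 in replicate 2. The same direction held for each library as a whole, with 44.8 Mb of such bases in replicate 1 and 23.2 Mb in replicate 2.

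Merging overlapping peaks gave 119 sites, of which 46 were found in both libraries, 71 in replicate 1 alone and 2 in replicate 2 alone. In replicate 1, 39.3% of the peaks in the window had a partner, against 46.9% of all its peaks. In replicate 2, 95.8% had a partner, against 88.8% of all its peaks. The sites found in both were the denser ones. Their median density was 1.93 in replicate 1, against 0.487 for the sites of replicate 1 alone, and the densest unpartnered site of replicate 1, at 127.0 kb, had 2.62. Peaks above 90% of their library by density numbered 10 of 117 in replicate 1 and 6 of 48 in replicate 2. This cut takes 10% of all peaks of a library by definition, so these counts do not mark the window as unusually dense.

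Across the 46 shared sites, the densities of the libraries ranked alike, with a Spearman coefficient of 0.906 and a Pearson coefficient of 0.905 on log10 densities. These coefficients are a description across sites of 1 locus, which share their libraries and their neighbourhood, and carry no p. The largest shift in rank was 13 places, at −96.5 kb (chr10:21257380-21257540), which was number 31 in replicate 1 and number 44 in replicate 2. Next came the sites at 2.72, −28.2 and 168.1 kb, each 12 places lower in replicate 2. Of these 4 sites, those at −96.5, −28.2 and 168.1 kb held a match to the CTCF consensus with 1 letter free, and 5 of the 46 shared sites did in all. The others with such a match, at 165.4 and −141.1 kb, shifted by 1 or 2 places. This search was chosen after the values had been seen.

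**Figure D3:**
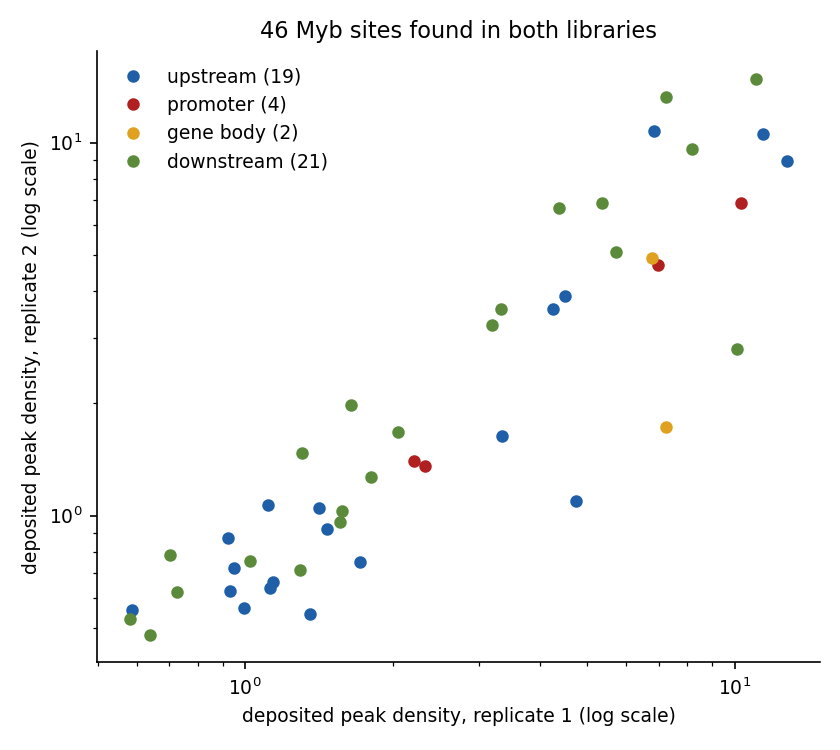
Deposited density in replicate 1 against replicate 2, both on log scales, for the 46 sites of the Myb window found in both libraries, coloured by position (19 upstream, 4 promoter, 2 gene body, 21 downstream). The points run along the diagonal, and those at 168.1, 2.72 and −28.2 kb fall below the others of like density.

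Replicate 1 listed many peaks of very low density in 2 stretches of the window, whose bounds were drawn after their values had been seen. The stretch chr10:21051061-21062940, 11.9 kb within Ahi1, held 23 peaks in replicate 1 and 2 in replicate 2. The stretch chr10:21202333-21233024, 30.7 kb within Gm33728, held 25 peaks in replicate 1 and 5 in replicate 2. Of the 35 peaks of replicate 1 below the lowest density that replicate 2 listed in the window, 0.480, the Ahi1 stretch held 18, the Gm33728 stretch 15 and the rest of the window 2. In the whole library of replicate 1, 31.6% of peaks were below that density, against 29.9% of its peaks in the window. In the whole library of replicate 2, 21.3% of peaks were below it, so it is the lowest value of this window and no limit of that library. The scaling of densities is not stated, so this cut may not stand at the same level in both libraries.

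Density and false discovery rate went apart in these stretches. At densities from 0.5 to 1, the 7 sites of replicate 1 inside them had a median lowest false discovery rate of 6.8e-17, against 0.0045 for the 26 sites elsewhere in the window. The site at 106.0 kb had densities of 1.56 in replicate 1 and 0.960 in replicate 2, with lowest rates of 2.8e-136 in replicate 1 and 2.6e-06 in replicate 2. The Myb promoter site, with a density of 10.3 in replicate 1, reached 5.1e-72 there. Of the sites in these stretches, 1 had a median of more than 1 copy in the genome of the 31-base words it contains, and none of the 46 shared sites did. What sets the density and the rate apart there was not tested.

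**Figure D4:**
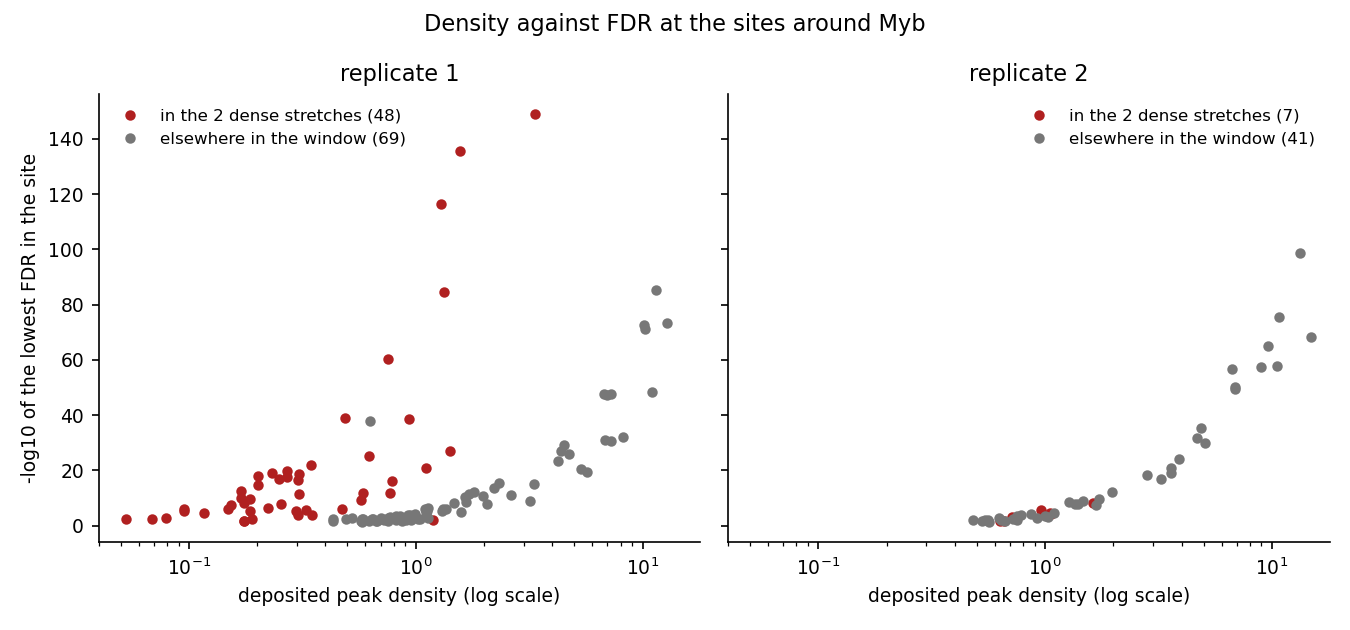
Deposited peak density (log scale) against the −log10 of the lowest false discovery rate within each site of the Myb window, replicate 1 on the left and replicate 2 on the right, with sites of the 2 stretches in red and the others in grey. In replicate 1 many red points rise above the grey ones of like density, up to 2.8e-136 at 106.0 kb and 9.7e-150 at −61.8 kb, as does 1 grey point at 94.6 kb with 1.1e-38, and in replicate 2 the red points lie among the grey ones.

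Footprints were compared between the libraries in the same way as peaks. Of the footprints in the window, 85 in each library overlapped one of the other, which is 27.2% in replicate 1 against 35.7% of all its footprints, and 59.0% in replicate 2 against 67.9% of all its footprints. Both shares in the window were below the share of the whole library. Of the 312 footprints of replicate 1, 53 lay outside any peak, and of the 144 of replicate 2, 19 did. The median footprint of the window was 9 bases long in both libraries. The shortest was 7 bases in each, so the median lies near the shortest length listed.

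Long noncoding genes start at or near several of the open sites. The window held the starts of 7 such genes, of which 6 had a peak within 1 kb in replicate 1 and 4 in replicate 2, against 28.7% and 21.7% of all long noncoding genes. The window is itself rich in peaks, and the part of that in these counts was not tested. The 4 open in both libraries were Gm33728 and Gm40608 upstream, Gm48189 downstream and Gm20149 in antisense to Ahi1. Peaks lay over the starts of Gm40608 and Gm20149. The nearest peaks were 134 and 114 bp from the start of Gm33728 in replicates 1 and 2, and 201 and 221 bp from that of Gm48189. Gm20149 starts at the site at 112.0 kb (chr10:21048801-21049080), which had densities of 4.38 in replicate 1 and 6.68 in replicate 2. Gm10826, with a densest peak of 2.62, and Gm26577, which runs antisense within Myb, with one of 0.582, had a peak within 1 kb in replicate 1 alone. Gm33619 had none in either library. Whether any of these genes was transcribed was not measured.

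Short sequence words for factors of thymocytes and blood were searched in the 200 bp at the middle of each shared site and of every peak, on both strands. The E-box words CAGCTG and CACCTG were found in 60.9% of the shared Myb sites, against 36.2% of all peaks in replicate 1 and 40.0% in replicate 2. Taken apart, CACCTG was found in 45.7% of the Myb sites, against 23.9% and 26.3% of all peaks, and CAGCTG in 28.3%, against 16.9% and 19.6%. In the central 100 bp, CACCTG was in 39.1% of the Myb sites, against 15.2% and 16.9% of all peaks. CAGCTG turned the other way there, in 8.70% of the Myb sites, against 9.97% and 11.9% of all peaks. In the whole sites there were 47 E-box matches, of which 7 touched and 3 lay wholly inside a footprint of both libraries. These 3 were at 93.4, −61.7 and −74.4 kb. In the 250 bp upstream of all protein-coding genes, an E-box word was found in 27.5%. The shared sites are denser than most peaks and lie mostly outside promoters. The part of density, base composition or promoters in these shares was not tested.

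Over the same 200 bp, words of other factors stood closer, in percentage points, to their level in all peaks. Relative to those levels, the RUNX word and the TCF and LEF words also departed. The MYB words CAACNG and TAACNG, which the protein's own repeats read, were in 39.1% of the Myb sites, against 39.3% and 38.9% of all peaks. The ETS word GGAAGT was in 21.7%, against 20.1% and 23.0%, but in the central 100 bp it was in 6.52%, against 12.4% and 14.5%. The RUNX word TGTGGT was in 13.0%, against 19.2% and 19.1%. In the whole shared sites, none of its 8 matches touched a footprint shared by both libraries. None of 5 GATA matches did so either, and 1 of 23 MYB matches did, so these counts do not set RUNX apart. The TCF and LEF words CTTTGAA and CTTTGAT were in 10.9%, against 7.17% and 7.22%, which is 5 sites. The GATA word AGATAA was in 6.52%, against 6.55% and 5.80%, and the Ikaros word TGGGAA in 19.6%, against 16.9% and 15.1%. In the central 100 bp the GATA word was in 6.52%, against 2.61% and 2.47%. The TCF and LEF words were in 6.52% there, against 3.50% and 3.69%, and each of these shares is 3 sites. The MYB words were in 23.9% there, against 21.9% and 21.7%, and the RUNX word in 10.9%, against 11.7% in both libraries. Ikaros was in 10.9%, against 8.16% and 7.48%.

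Among words common at promoters, those of SP and KLF factors and the CCAAT-box were scarcer here than among all peaks. The SP and KLF word GGGCGG was in 6.52% of the shared Myb sites, against 17.9% and 24.8% of all peaks, and the word CCAAT in 6.52%, against 19.99% and 19.94%. In the 250 bp upstream of all protein-coding genes, GGGCGG was in 39.0% and CCAAT in 36.0%. All peaks include those at promoters across the genome, whereas only 4 of the 46 shared sites lay at the Myb promoter, besides the Hbs1l promoter. The part of promoters in this scarcity was not tested. The full CTCF consensus was in 0 of 46 sites, against 5.46% and 4.25% of all peaks, and with 1 letter free it was in 10.9%, against 20.2% and 13.4%. The E2F word TTTGGCG was in 1 site, the Myb promoter, which is 2.17%, against 0.880% and 0.986% of all peaks. It was in 1.50% of the 250-bp stretches upstream of all protein-coding genes. The NRF1 word GCGCANGCG was in 2 sites, the Myb and Hbs1l promoters, which is 4.35%, against 2.04% and 3.40% of all peaks. With 46 sites, 1 site is 2.17%, so small differences in these shares rest on few sites.

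**Figure D5:**
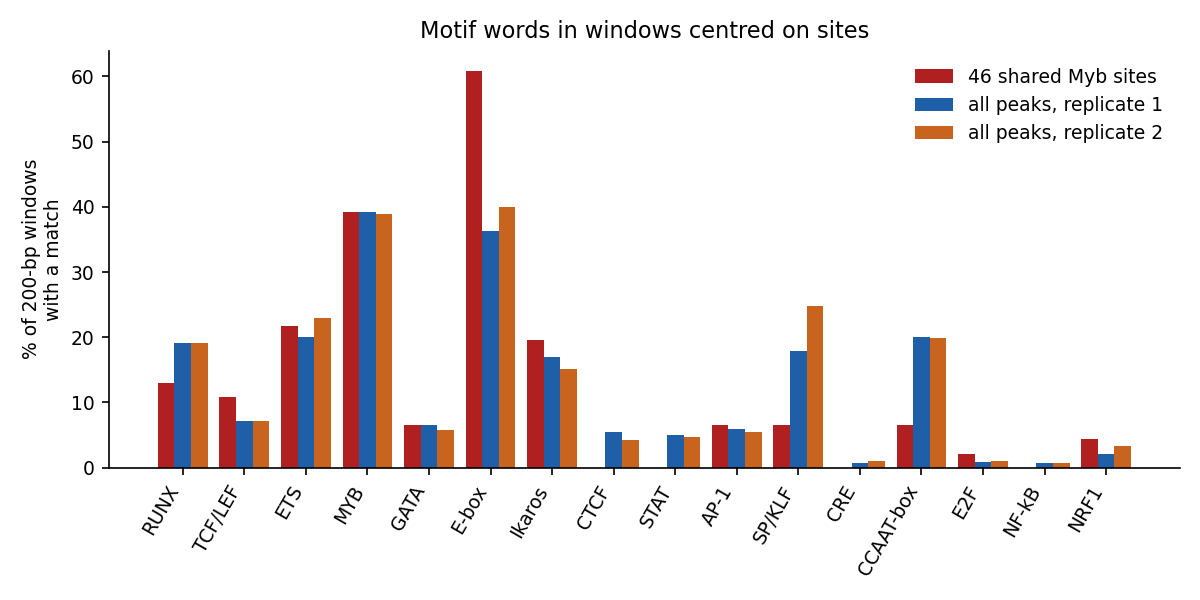
Share of 200-bp windows with a match to each motif word, in %, for the 46 Myb sites found in both libraries (red), all peaks of replicate 1 (blue) and all peaks of replicate 2 (orange). The red E-box bar, at 60.9%, stands above both of its neighbours, and the red bars for SP/KLF and the CCAAT-box, each at 6.52%, stand below theirs.

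By promoter density, body peaks, upstream peaks and window footprints, each as a percentile in both libraries, 5 genes were most like Myb among 7254 with a body 0.5 to 2 times as long. The distances are Euclidean over 8 percentiles, and the median candidate lay at 108.7. Katnal1, a microtubule-severing enzyme subunit, was nearest at a distance of 5.59, with 118 window peaks in replicate 1 and 47 in replicate 2. Jade2, a chromatin adaptor, followed at 8.80 with 68 and 44 peaks. Rapgef3, an exchange factor activated by cyclic AMP, lay at 9.96 with 115 and 47. Stat5a, a transcription factor of cytokine receptors, lay at 10.1 with 91 and 53. Ubash3a, a negative regulator of T cell receptor signalling, lay at 10.3 with 81 and 46.

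Of 39 genes around MYB in its pathway, Myb itself counted, 30 were open at their promoters in both libraries. Over all protein-coding genes, 61.7% had a promoter peak in replicate 1 and 55.1% in replicate 2. The share of all genes open in both libraries was not computed. The lists differed, from 12 of 12 partners and regulators to 4 of 10 factors reported at Myb enhancers. All 3 genes of the MYB family were open in both. Mybl1 had promoter densities of 10.6 in replicate 1 and 7.41 in replicate 2, and Mybl2, a factor of dividing cells, had 20.1 and 8.78. All 12 genes for partners and regulators of the protein were open in both. Crebbp and Ep300, acetyltransferases that MYB recruits, had 12.2 and 3.27 for Crebbp and 22.3 and 15.5 for Ep300. Fbxw7, part of a ubiquitin ligase that removes MYB, had 55.3 and 44.6.

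Of 14 genes reported as MYB-dependent in blood cells, 11 were open in both libraries. Rag2, a subunit of the recombinase, had promoter densities of 9.40 in replicate 1 and 8.39 in replicate 2, and Bcl2l1, which protects thymocytes from cell death, had 47.0 and 33.7. The myeloid genes Mpo and Elane, which encode granule enzymes, had no promoter peak in either library. Cd34, a surface protein of progenitors, had one in replicate 1 alone, at 0.270. Kit, the receptor for stem cell factor and also a gene of progenitors, had 11.0 in replicate 1 and 4.37 in replicate 2.

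Of 10 factors reported at Myb enhancers in blood cells, 4 were open at their promoters in both libraries, namely Runx1, Spi1, Ldb1 and Meis1. Runx1, needed for T cell development, had promoter densities of 9.69 in replicate 1 and 8.64 in replicate 2 and 57 and 34 peaks in its body. Meis1 had only 0.915 and 0.522. Gata2 had a peak in replicate 1 alone, at 0.444, and Tal1, Lmo2, Gata1, Klf1 and Hoxa9 had none within 1 kb of the gene start in either library. These lists hold few genes, and 61.7% and 55.1% of all protein-coding genes had a promoter peak, so the counts are given as a description.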

How the data were processed

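DNase-seq was analysed from 2 libraries of mouse thymus, 1 per animal, in 1 group. Per the labels, positions are on mm10, and by the deposited notes each file was made from a single library's filtered alignment without pooling. For the aligner and the callers, name and version were not given in the sources used here, and read depth is unknown. Peaks carry the authors' signal density, with no stated scaling. The deposited q-value (false discovery rate) file lists only bases below 0.05. The deposited footprints all carry an identical score, and were used by position alone.

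Each library has a longer and a shorter deposited peak list, and the longer was used. Peaks were in the window when at least 1 base overlapped it, and partners needed 1 base of overlap. Gene models were GENCODE M21 on GRCm38, with promoters of 1 kb on either side of the gene start. Sequence came from the RefSeq copy of GRCm38.p6, the same build as mm10, and the 250 bp upstream of Myb matched the RefSeq promoter table. Motif words were matched on both strands. Words with free letters can contain another word, as the STAT word TTCNNNGAA can hold the TCF and LEF word CTTTGAA. Matches may also overlap each other in part, so the counts of the families are not wholly separate. Bases were counted as shared when footprints of both libraries covered them.

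All promoter sites and the 12 shared sites with the best mean density rank were named, with the densest site of each part of the locus, the protein-coding neighbours and the 5 genes most like Myb. Sites at 2.72, −90.9, −25.9, −28.2, −35.8, −61.8, −96.5, −141.1, 93.5, 94.6, 106.0, 112.0, 127.0 and 165.4 kb were named after their values had been seen. The members and lists were chosen with earlier results of these data known. With 1 group and n = 2 no test was run. Python 3.11.15, numpy 2.4.6, pandas 2.3.3, numba 0.67.0 and matplotlib 3.10.9 were used, and overlap counts were checked with bedtools 2.31.1. Alternatives were a shorter list, other window and promoter widths, density and q-value limits, overlap, motif windows and leaving out a library.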

Additional observations from a re-analysis of the deposited data

How the results depend on the processing

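The mean of 82.5 peaks in the window became 62 with the shorter deposited list, 71.5 with 100 kb on each side, 28.5 with 50 kb, 9 with 10 kb and 7.5 in the gene body alone, as narrower windows hold less DNA. Peaks at or above their library's median density averaged 43, and those at or above the lowest density that replicate 2 listed in the window averaged 65, an alternative added after seeing the data. With that floor Myb had 82 and 48 peaks, above 98.4% and 97.0% of genes. The scaling of densities is not stated, so that floor may not stand at the same level in both libraries. The 46 shared sites stayed 46 at an overlap of 50% and became 33 with the shorter list. The 4 promoter peaks became 1 within 0.5 kb, 5 within 2 kb and 5 over any transcript start. Footprints averaged 228, and 192 inside peaks. Bases averaged 28376.5 below 0.05, 24236.5 below 0.01 and 20373.5 below 0.001. Leaving out either library gave 48 to 117 peaks, 144 to 312 footprints and 15955 to 40798 bases, so each of these means rests on both libraries. Of the 46 shared sites, 39 held a word of RUNX, TCF/LEF, ETS, MYB, GATA or E-box in the whole site, and 32 did in the central 100 bp. The same count was not made over all peaks, so it does not set these sites apart. The MYB words alone were in 39.3% and 38.9% of the 200-bp windows of all peaks. Of the 13 motif families with a match, 8 (TCF/LEF, ETS, MYB, Ikaros, STAT, AP-1, SP/KLF and the CCAAT-box) changed their number of sites by over 1.5 times in that shorter window. Counting any transcript start, also added after seeing the data, 32 of 39 pathway genes were open in both libraries, against 30. No paired analysis was possible because the libraries form 1 group. Unknown depth limits what the weaker library could show, and whether a site missing from it was absent or not detectable cannot be told apart.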
